A study of Homo sapiens with 21 samples.

Results

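The RNA levels of 10 genes of the mucous epithelial surface were described across 17 human cancer cell lines: the transmembrane mucins MUC1, MUC4, MUC13, MUC16 and MUC20, the secreted mucin MUC5AC, the carcinoembryonic antigen family members CEACAM1, CEACAM5 and CEACAM6, and the secreted protease inhibitor SLPI. They were taken by symbol through the Ensembl identifiers of the count files, where they are 10 of 53515 genes, and the rule that picks them uses symbols and no measured value, although the genes were proposed with earlier results of these data known. RNA sequencing gave 21 libraries of 7 parental lines and of 10 lines that had been kept under rising drug doses until they tolerated the drug. Each resistant line was compared with its own parental line.

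The liver line HepG2 was the parent of HepG2S1 and HepG2S3, both resistant to sorafenib, an inhibitor of several kinases. The pancreatic line PancVB was the parent of PancB1Q and PancB1V, both resistant to the antimetabolite 5-fluorouracil. Among the lung lines, HCC4006P1 was the parent of the erlotinib-resistant HCC4006ER, HCC4006P2 that of the gefitinib-resistant HCC4006GR, and HCC827P that of the gefitinib-resistant HCC827GR. HCC4006P1 and HCC4006P2 are separate stocks of the same line, and both drugs inhibit the receptor EGFR. The ovarian line UWB1.289 was the parent of U10 and U100, both resistant to the PARP inhibitor olaparib, and IGROV-1/CDDP, resistant to cisplatin, came from a further ovarian line, IGROV-1. There were 2 libraries for each of the lines HepG2, HCC4006P1, HepG2S3 and HCC4006ER and 1 for each remaining line, so 8 of the 10 pairs allow no test within the pair. Each resistant line is a single selected line, and a change that came with the drug cannot be told apart from a change of that line.

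Library totals on genes ranged from 9851195 to 36639473 counts with a median of 19498932. Levels are given as CPM, counts scaled to a common total on genes, and 3 counts, taken as the smallest detected number, are worth 0.0819 CPM in the deepest and 0.305 CPM in the shallowest library. A gene with 0 counts can therefore lie anywhere up to that floor. The counts of HCC4006P1 replicate 1 end within chromosome 7, which raises its CPM of all other genes by 22.8%, while all 10 genes lie before that point. The sums of 6 liver markers showed that HepG2S1 and HepG2S3 stood apart from their parent. These sums were 25465 CPM in HepG2, 0.812 CPM in HepG2S1 and 23.1 CPM in HepG2S3, with ALB, AFP and SERPINA1 at 0 counts in HepG2S1. The sums of 5 lung markers were 0.450 CPM in HCC4006P1 and 0.612 CPM in HCC4006ER, with each gene under 1 CPM, against 3349 CPM in HCC4006P2 and 314 CPM in HCC4006GR. Whether each resistant line derives from its labelled parent was not tested here, and a change within a line cannot be told apart from a difference between lines. Every result on the HepG2 pairs, and every result that sets the HCC4006 stocks side by side, is to be read with these sums in view, and their part in the results was not tested.

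Mucins are long glycoproteins that carry dense O-linked sugar chains. The transmembrane forms make up the glycocalyx on the free face of epithelial cells and signal through their tails, whereas the secreted forms polymerise into mucus gel. CEACAMs are adhesion molecules of the immunoglobulin superfamily, anchored in the membrane either by a helix, as CEACAM1, or by a lipid, as CEACAM5 and CEACAM6. SLPI is released with mucus and inhibits neutrophil elastase. All are typical of polarised secretory epithelium, and several serve as serum markers of carcinoma.

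The 10 genes are spread over several chromosomes, and some of them are neighbours. On GRCh37, the build of the count files, MUC20 (chr3:195447755-195467994, plus strand) and MUC4 (chr3:195473636-195538844, minus strand) are neighbours separated by 5641 bases, and MUC13 lies on the same chromosome (chr3:124624289-124672663, minus strand). CEACAM5 (chr19:42212504-42234353) and CEACAM6 (chr19:42254885-42276116) follow each other on the plus strand with 20531 bases between them. CEACAM1 (chr19:43011456-43065386, minus strand) and MUC16 (chr19:8959520-9121066, minus strand) share their chromosome. MUC1 (chr1:155158300-155162707, minus strand), MUC5AC (chr11:1151580-1222364, plus strand) and SLPI (chr20:43880880-43883205, minus strand) lie apart. Of the span of MUC5AC, 70.6% is unresolved in this build, so its counts come from the remainder of the gene. Of the 50-base stretches in the annotated transcripts of MUC20, 32.7% also occur in other genes, chiefly MUC20-OT1 and the pseudogene MUC20P1, and its counts are uncertain to that extent. That share was 7.22% for CEACAM6, 5.24% for CEACAM5, 3.28% for CEACAM1 and 0% for the other members.

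RefSeq promoter windows (GRCh38.p14) were found for 7 of the 10 genes, all but MUC5AC, MUC20 and SLPI. The windows of the CEACAM genes and of MUC1 are shown because CEACAM5 and CEACAM6 were lower by nearly the same ratio in the gefitinib-resistant HCC4006GR while CEACAM1 was not, and because MUC1 was called in both replicated pairs in opposite directions. Each sequence is the 250 bases before the annotated start, 5′ to 3′ on the gene's strand, and capitals mark the E-box CAGGTG or its complement CACCTG, the motif bound by the SNAIL and ZEB repressors of epithelial genes. The windows are chr1:155192916-155193165 (minus strand) for MUC1, chr19:42528482-42528731 (minus strand) for CEACAM1, chr19:41708376-41708625 (plus strand) for CEACAM5 and chr19:41755280-41755529 (plus strand) for CEACAM6.
MUC1: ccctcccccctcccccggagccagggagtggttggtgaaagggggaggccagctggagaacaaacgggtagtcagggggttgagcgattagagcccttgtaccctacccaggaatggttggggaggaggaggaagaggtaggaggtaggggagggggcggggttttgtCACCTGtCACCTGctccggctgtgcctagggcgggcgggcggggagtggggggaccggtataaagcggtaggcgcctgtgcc
CEACAM1: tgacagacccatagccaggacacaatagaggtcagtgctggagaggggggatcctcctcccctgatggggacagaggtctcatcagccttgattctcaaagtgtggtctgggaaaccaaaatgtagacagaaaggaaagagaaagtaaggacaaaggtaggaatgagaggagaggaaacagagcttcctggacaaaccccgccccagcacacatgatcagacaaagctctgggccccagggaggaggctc
CEACAM5: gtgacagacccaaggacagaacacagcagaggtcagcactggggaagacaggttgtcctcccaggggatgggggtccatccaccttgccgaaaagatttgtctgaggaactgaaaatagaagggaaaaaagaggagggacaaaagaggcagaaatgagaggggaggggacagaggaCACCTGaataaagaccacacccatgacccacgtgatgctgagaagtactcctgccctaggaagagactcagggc
CEACAM6: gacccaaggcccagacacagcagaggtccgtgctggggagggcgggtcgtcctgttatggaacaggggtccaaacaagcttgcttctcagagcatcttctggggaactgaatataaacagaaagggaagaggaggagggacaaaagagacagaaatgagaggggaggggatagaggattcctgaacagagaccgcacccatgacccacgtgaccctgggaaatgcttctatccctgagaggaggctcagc
The MUC1 window shown held the motif at 82 and at 75 bases before the start, and the CEACAM5 window at 74. A second window of MUC16 held it at 159 bases before its start, and no match was found in the windows of CEACAM1, CEACAM6, MUC4 or MUC13. Of 35116 promoter windows of the same length, 17.5% held the motif on either strand. The identity between the aligned windows was 73.6% for CEACAM5 and CEACAM6, 67.6% for CEACAM1 and CEACAM6, and 64.4% for CEACAM1 and CEACAM5. The CEACAM windows were poor in CpG, with 1 in CEACAM1, 2 in CEACAM5 and 5 in CEACAM6, against 11 in MUC1 and a median of 11 over all windows.

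Each of the 10 genes was high in only some of the lines. CEACAM1 had at least 3 counts in every library of all 17 lines and MUC1 and MUC20 in 16, while MUC5AC and MUC13 reached this in 6 and CEACAM6 in 5. At 10 CPM or more, MUC16 was found in 8 lines, MUC1 and SLPI in 7, MUC20 in 6, MUC4 in 5, CEACAM1 and CEACAM6 in 4, MUC13 and CEACAM5 in 2 and MUC5AC in 1. The highest level of each gene fell in lines of different tissues. MUC5AC peaked in the pancreatic PancVB, MUC4 and SLPI in the ovarian U10 and U100, MUC13 and CEACAM1 in the liver group, and MUC1, MUC16, MUC20, CEACAM5 and CEACAM6 in lung lines. Per kilobase of merged exon, CEACAM6 reached 2505 CPM per kb in HCC4006P2, SLPI 520 CPM per kb in U100 and MUC1 133 CPM per kb in HCC4006P1, while MUC16 reached 14.0 CPM per kb in HCC827P in spite of its high count. Such values allow a comparison of genes only where reads cover whole transcripts, and which libraries were made so is not stated. MUC5AC was left out of that comparison because its exon length in this build is incomplete.

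**Figure D1:**
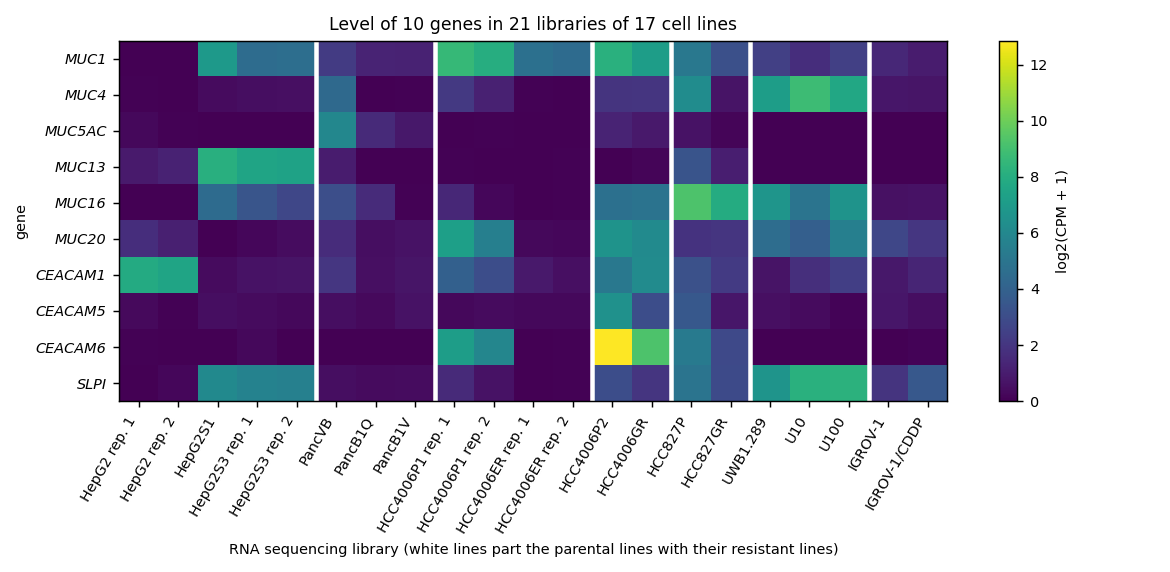
Level of the 10 genes (rows) in the 21 libraries (columns), as log2(CPM + 1) by colour, with white lines between the groups formed by a parental line and its resistant lines. The brightest field is CEACAM6 in HCC4006P2 at 7405 CPM, and CEACAM1 is bright in both HepG2 libraries but dark in HepG2S1 and HepG2S3, where MUC1, MUC13 and SLPI are bright instead.

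In the 10 pairs, 15 of the 100 gene and pair combinations were higher and 31 lower in the resistant line by the rule used throughout, a difference of at least 1 in log2(CPM + 1) whose 95% counting interval excludes 0. That interval covers counting error only and is no test between lines. Because 1 CPM is added before the logarithm, differences of low genes are understated. In HepG2S1, 4 genes were higher and 2 lower, where the same rule took 25.5% of genes as higher and 18.4% as lower. These shares, here and for the other pairs, are over genes with at least 1 CPM in 1 of the 2 lines, whereas the 10 members were counted whatever their level. In HepG2S3, 4 were higher and 2 lower, against 27.3% and 17.7% of these genes. No gene was higher and 5 were lower in PancB1Q (6.10% and 9.41%), and none was higher and 4 were lower in PancB1V (8.89% and 7.25%). None was higher and 6 were lower in HCC4006ER (17% and 10.8%), and none was higher and 8 were lower in HCC827GR (10.6% and 7.67%). HCC4006GR had 1 higher and 3 lower (7.75% and 7.47%). In the ovarian lines 3 were higher and 1 lower in U10 (6.27% and 5.11%), 2 higher and none lower in U100 (6.43% and 1.73%), and 1 higher and none lower in IGROV-1/CDDP (5.55% and 7.21%). The higher calls there were of SLPI, CEACAM1 and MUC4 only, and U10 and U100 share 1 parental library. These calls are too few to give a direction of the members in the ovarian lines. The median difference over the 10 genes was lowest in HCC827GR at -2.05, where that of the genes with at least 1 CPM was 0.05, and was -1.42 in HCC4006ER, where that of these genes was 0.06. With TMM library sizes the latter median moved from 0.25 to -0.13 in HepG2S1, from 0.28 to 0.02 in HepG2S3 and from -0.12 to 0.03 in PancB1Q, with 15 higher and 31 lower combinations as before.

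**Figure D2:**
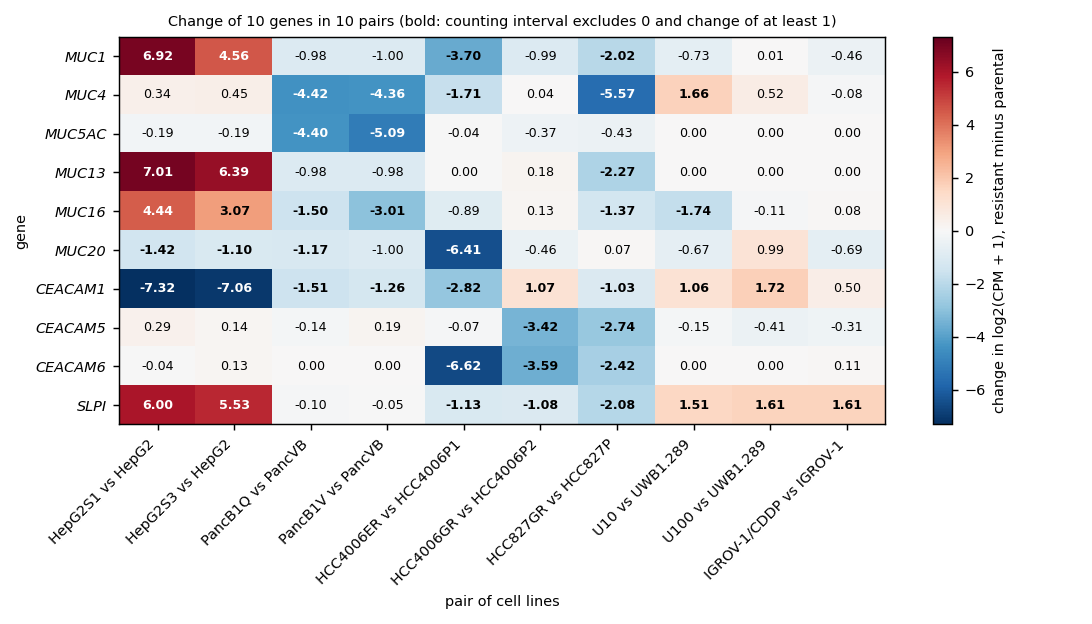
Difference in log2(CPM + 1) between each resistant line and its parental line (columns) for the 10 genes (rows), with red for higher and blue for lower in the resistant line and bold type where the counting interval excludes 0 and the difference is at least 1. The HepG2 pairs hold the largest values in both directions, from 7.01 for MUC13 to -7.32 for CEACAM1 in HepG2S1, while the lung columns are mostly blue and SLPI is red in the HepG2 and ovarian columns.

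MUC1, the transmembrane mucin of most simple epithelia, was close to absent in HepG2 and present in its resistant lines. Its level was 0.0273 and 0 CPM in the HepG2 libraries, 122 CPM in HepG2S1, and 21.9 and 23.9 CPM in the HepG2S3 libraries. The libraries of parent and resistant lines did not overlap, and HepG2S3 exceeded HepG2 by a ratio of 1636, with a counting interval of 293 to 64680 since a single HepG2 read stands under it. In edgeR's quasi-likelihood test of the 2 HepG2S3 against the 2 HepG2 libraries MUC1 rose by 10.05 ± 0.46 (log2 ± SE, Benjamini-Hochberg adjusted p = 7.3e-05). The fitted value was 12.44 without HepG2 replicate 1 and 9.22 without HepG2 replicate 2, so its size is less certain than the SE. The lung lines showed the opposite order. MUC1 had 385 and 253 CPM in the HCC4006P1 libraries, the highest of all lines, and 25.9 and 21.4 CPM in the HCC4006ER libraries. It fell by 3.68 ± 0.16 in the edgeR test (adjusted p = 1.7e-05), a ratio of 13.4. The second stock held 285 CPM in HCC4006P2 and 143 CPM in HCC4006GR, and HCC827P held 34.9 CPM against 7.85 CPM in HCC827GR. The pancreatic and ovarian lines stayed low, between 0.949 CPM in IGROV-1/CDDP and 4.42 CPM in U100. In the order of levels HCC4006P1 and HCC4006P2 did not differ beyond 2 times the replicate spread, nor did HCC827P, HCC4006ER and HepG2S3 from their neighbours among these 3.

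MUC4, the large mucin that binds the receptor ERBB2, was a gene of the ovarian UWB1.289 group and of some lung and pancreatic parents. It had 144 CPM in UWB1.289, 455 CPM in U10 and 206 CPM in U100, so the difference was 1.66 in log2(CPM + 1) for U10 and 0.52 for U100. In several resistant lines of other tissues few or no reads were left. PancVB held 20.3 CPM, PancB1Q had 0 counts and PancB1V 0.0403 CPM, at least 194-fold lower in PancB1Q when 3 counts are taken as the floor. HCC827P held 74.0 CPM and HCC827GR 0.579 CPM, a ratio of 128 with a counting interval of 67.1 to 280. In the HCC4006P1 libraries MUC4 had 3.42 and 1.28 CPM, and in the HCC4006ER libraries 0.0506 and 0 CPM. It fell there by 6.11 ± 0.85 (edgeR, adjusted p = 0.0016), from a parental level that was already low. HCC4006GR did not share this, with 2.98 CPM against 2.87 CPM in HCC4006P2. In HepG2S3 MUC4 had 0.375 and 0.424 CPM against 0.0546 and 0 CPM in HepG2, and rose by 3.37 ± 0.79 (edgeR, adjusted p = 0.014). That call rests on 2 HepG2 reads, and it was lost in DESeq2 (adjusted p = 0.052) and without HepG2S3 replicate 1 (adjusted p = 0.051), and MUC4 did not pass the filter without HepG2S3 replicate 2. The fitted value was 6.61 without HepG2 replicate 1 and 2.47 without HepG2 replicate 2.

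MUC13, a transmembrane mucin best known from intestinal and gastric epithelium, was highest in the resistant liver lines. It had 0.873 and 1.38 CPM in HepG2, 272 CPM in HepG2S1, and 183 and 171 CPM in HepG2S3. It rose by 6.98 ± 0.26 in HepG2S3 (edgeR, adjusted p = 4.7e-05), with all libraries of the resistant lines above all of the parent. Among the other lines only HCC827P exceeded 1.1 CPM, with 9.11 CPM against 1.09 CPM in HCC827GR. PancVB held 0.967 CPM and both of its resistant lines had 0 counts, at least 9.20-fold lower in PancB1Q and at least 8.0-fold lower in PancB1V. No read of MUC13 was counted in any of the 5 ovarian lines.

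MUC16, the giant mucin whose shed part is the serum marker of ovarian cancer, was highest not in an ovarian line but in HCC827P. It had 618 CPM in HCC827P and 238 CPM in HCC827GR, a ratio of 2.59. In the ovarian group it had 103 CPM in UWB1.289, 30.1 CPM in U10 and 95.3 CPM in U100, so that U10 was lower by 1.74 in log2(CPM + 1) and U100 by 0.11. The cisplatin pair was far under the other ovarian parent, with 0.473 CPM in the parental and 0.554 CPM in the resistant line. In the liver group 1 read was counted in each HepG2 library (0.0273 and 0.0287 CPM), against 21.3 CPM in HepG2S1 and 9.53 and 5.71 CPM in HepG2S3. It rose by 7.61 ± 0.56 in HepG2S3 (edgeR, adjusted p = 0.00028). PancVB held 7.37 CPM, PancB1Q 1.96 CPM and PancB1V 0.0403 CPM. The stocks of HCC4006 differed, with 25.8 CPM in HCC4006P2 and 28.3 CPM in HCC4006GR but 1.66 and 0.154 CPM in HCC4006P1 and 0 and 0.0514 CPM in HCC4006ER, where the gene did not pass the filter of the test.

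MUC20, a short mucin that binds the receptor MET, was above 10 CPM in 6 lines, all from the HCC4006 and UWB1.289 groups. In HCC4006P1 it had 152 and 46.3 CPM, a gap that makes it the member with the largest replicate spread (pooled replicate SD 0.63 in log2(CPM + 1)). In HCC4006ER it had 0.202 and 0.154 CPM. It fell by 8.94 ± 0.70 (edgeR, adjusted p = 0.00015), so the loss far exceeded that gap. HCC4006P2 held 96.2 CPM and HCC4006GR 69.8 CPM, a difference of -0.46. The ovarian lines held 22.8 CPM in UWB1.289, 13.9 CPM in U10, 46.3 CPM in U100 and, in the cisplatin pair, 5.68 CPM in the parental and 3.12 CPM in the resistant line. In the liver group the level was low throughout, 2.16 and 1.18 CPM in HepG2, 0 counts in HepG2S1 and 0.156 and 0.326 CPM in HepG2S3, where it fell by 3.09 ± 0.53 (edgeR, adjusted p = 0.0046). Because of the large replicate spread, none of the 16 steps between neighbouring lines in its order of levels exceeded 2 times that spread. In the UWB1.289 group U10 was the highest line for the neighbouring gene MUC4 and the lowest of the 3 for MUC20. U100 and U10 were called apart for neither gene in the edgeR fit of all 21 libraries, so whether their patterns differ is not settled.

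MUC5AC, the gel-forming mucin of airway and stomach that is gained in pancreatic cancer, was a gene of PancVB. It had 60.7 CPM there, 1.93 CPM in PancB1Q and 0.805 CPM in PancB1V, ratios of 31.5 (counting interval 24.1 to 42.1) and 75.4 (48.6 to 124). Outside this group no line exceeded 1.40 CPM, the level in HCC4006P2. In the 5 ovarian lines no read was counted. Of the other secreted gel-forming mucins, MUC5B had 298 CPM in HCC4006P2, 17.3 CPM in HCC4006GR, 121 CPM in HCC827P and 12.2 CPM in HCC827GR, and 1.52 CPM in PancVB.

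CEACAM1, the family member of bile canaliculi and many epithelia, was highest in HepG2 and nearly lost in its resistant lines. It had 232 and 182 CPM in HepG2, 0.305 CPM (3 counts) in HepG2S1, and 0.531 and 0.587 CPM in HepG2S3. It fell by 8.84 ± 0.25 in HepG2S3 (edgeR, adjusted p = 3.0e-05), the largest decrease of the members in that test, beside the liver markers, of which 6 of 6 fell. In HCC4006ER it fell by 3.91 ± 0.38 (edgeR, adjusted p = 0.00036), from 14.3 and 7.13 CPM to 0.860 and 0.462 CPM. PancVB held 3.04 CPM against 0.420 CPM in PancB1Q and 0.685 CPM in PancB1V. The opposite order was seen in HCC4006GR with 72.8 CPM against 34.2 CPM in HCC4006P2, and at low levels in the olaparib-resistant lines with 2.34 CPM in U10 and 4.27 CPM in U100 against 0.602 CPM (7 counts) in UWB1.289. CEACAM1 thus was higher in 3 pairs and lower in 6 of the 10 by the rule, which covers counting error only. In the edgeR fit of all 21 libraries it was called in none of the 3 higher pairs, nor in HCC827GR among the lower ones.

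CEACAM5, the carcinoembryonic antigen used as a serum marker of gut cancer, and CEACAM6 were genes of lung lines. CEACAM5 had 88.5 CPM in HCC4006P2, 10.4 CPM in HCC827P, 7.35 CPM in HCC4006GR and under 1 CPM in the other 14 lines. CEACAM6 had 7405 CPM in HCC4006P2, 614 CPM in HCC4006GR, 37.0 CPM in HCC827P and 6.11 CPM in HCC827GR. No library of a liver, pancreatic or ovarian line had more than 0.219 CPM of it. Both were lower in HCC4006GR than in HCC4006P2 by the same ratio, 12 for CEACAM5 (counting interval 9.91 to 14.8) and 12.1 for CEACAM6 (11.8 to 12.3), beside lung markers that were lower as well, with NKX2-1 at 112.7 CPM in HCC4006P2 and 18.6 CPM in HCC4006GR. In HCC827GR CEACAM5 was lower by a ratio of 14.8 and CEACAM6 by 6.05. In the HCC4006P1 libraries CEACAM6 had 141 and 58.6 CPM and in the HCC4006ER libraries 0 and 0.0514 CPM. It fell by 11.5 ± 0.65 (edgeR, adjusted p = 4.1e-05), the largest fitted decrease of the members there. That size rests on 1 read in HCC4006ER replicate 2. The fitted value was -10.63 without HCC4006ER replicate 1 and -13.84 without HCC4006ER replicate 2. CEACAM5 was at 0.214 and 0.308 CPM in HCC4006P1 and 0.202 and 0.205 CPM in HCC4006ER, so in this stock the neighbouring gene was near its floor before the drug. Of the other family members, CEACAM3, CEACAM4, CEACAM7, CEACAM8, CEACAM16, CEACAM18 and CEACAM21, did not exceed 1.32 CPM in any line.

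**Figure D3:**
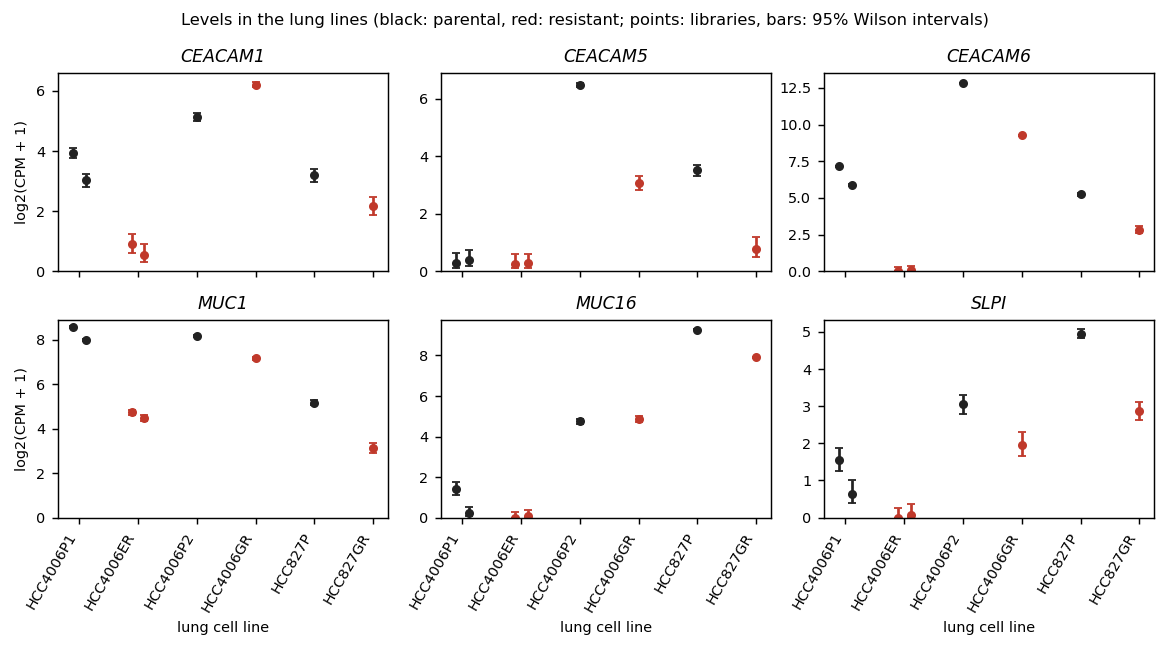
Levels of CEACAM1, CEACAM5, CEACAM6, MUC1, MUC16 and SLPI in the lung lines, as log2(CPM + 1) with a point per library and 95% Wilson intervals of counting error, in black for parental and red for resistant lines (each panel has its own scale). CEACAM6 lies at 7405 CPM in HCC4006P2 and at 141 and 58.6 CPM in the HCC4006P1 libraries, and CEACAM5 is seen in HCC4006P2 and HCC827P but is near 0 in HCC4006P1 and HCC4006ER.

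SLPI, the antiprotease, was higher in 5 of the 10 pairs and lower in 3, of which HCC4006ER went under the rule without HCC4006P1 replicate 1 (-0.61 in place of -1.13). It had 0 and 0.172 CPM in the HepG2 libraries, 68.5 CPM in HepG2S1, and 51.4 and 47.2 CPM in HepG2S3. It rose by 8.82 ± 0.63 in HepG2S3 (edgeR, adjusted p = 0.00025). All 6 parental reads came from HepG2 replicate 2, and the fitted value was 13.56 without that library and 7.82 without HepG2 replicate 1. All 3 olaparib and cisplatin pairs showed the same order. UWB1.289 held 101 CPM against 289 CPM in U10 and 310 CPM in U100, ratios of 2.86 and 3.07, and IGROV-1 held 2.87 CPM against 10.8 CPM in IGROV-1/CDDP, a ratio of 3.76 (counting interval 2.92 to 4.89). The lung pairs showed the reverse. HCC827P held 30.0 CPM against 6.30 CPM in HCC827GR, and HCC4006P2 held 7.27 CPM against 2.91 CPM in HCC4006GR. In HCC4006ER, with 0 and 0.0514 CPM against 1.92 and 0.564 CPM in HCC4006P1, SLPI fell by 5.20 ± 1.01 (edgeR, adjusted p = 0.0062), a call that was lost when genes past the stop of HCC4006P1 replicate 1 were kept in the fit (adjusted p = 0.067). The pancreatic lines did not take part, with 0.414 CPM in PancVB, 0.315 CPM in PancB1Q and 0.362 CPM in PancB1V. Its kin PI3, the antiprotease elafin, had 47.1 CPM in UWB1.289, 62.2 CPM in U10 and 48.5 CPM in U100, and 8.88 CPM in HCC827P against 61.2 CPM in HCC827GR, where SLPI went the other way.

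The pairs with 2 libraries on each side allowed a test across all genes. In HepG2S3 against HepG2, 7 of the 10 members passed the filter on low counts, 5 were called higher and 2 lower at an adjusted p under 0.05, where 31.4% and 32.1% of the 16929 genes tested were called higher and lower. The members called higher were MUC1, MUC4, MUC13, MUC16 and SLPI, and those called lower CEACAM1 and MUC20. MUC1, MUC4, MUC16 and SLPI had at most 6 reads in a HepG2 library and passed the filter through HepG2S3, so they could only be called higher and the count says nothing of the members as a group. In HCC4006ER against HCC4006P1, 6 members passed the filter and all 6 were called lower, where 24.1% and 24.9% of 12791 genes were called higher and lower. They were MUC1, MUC4, MUC20, CEACAM1, CEACAM6 and SLPI. MUC4, MUC20, CEACAM6 and SLPI had at most 4 reads in an HCC4006ER library and passed through their level in HCC4006P1, so this count does not stand for the 10 genes either. Nothing says that the 2 libraries of a line came from separate cultures, so these p-values measure the spread between libraries, which may be technical.

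**Figure D4:**
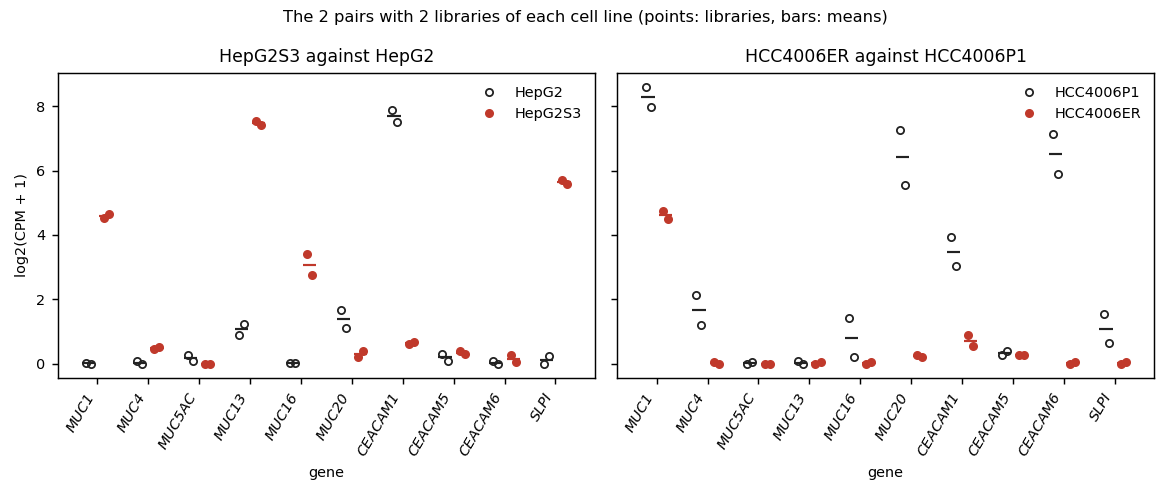
Levels of the 10 genes in the pairs with 2 libraries of each line, as log2(CPM + 1), with open black points for parental and filled red points for resistant libraries and short bars at the mean of the 2 points. MUC1, MUC13, MUC16 and SLPI lie higher in HepG2S3 than in HepG2, and in HCC4006ER every member seen in HCC4006P1 lies lower.

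The fitted changes differed between the replicated pairs. In an edgeR fit of their 8 libraries, chosen after the data were seen, the change in HepG2S3 minus the change in HCC4006ER passed an adjusted p of 0.05 for 8 members, where 28.2% of 14478 genes were called higher and 27.7% lower. MUC1 differed by 13.70 ± 0.41 (adjusted p = 6.4e-08) and SLPI by 14.10 ± 1.16 (adjusted p = 1.5e-05), and each rose in the liver pair and fell in the lung pair. MUC4 differed by 9.54 ± 1.30 (adjusted p = 0.00029) with the same opposite signs, at low counts in both pairs. SLPI and MUC4 had at most 6 reads in a HepG2 library and at most 1 in an HCC4006ER library. The sign of their difference was therefore fixed by these levels. MUC1, with 1 read in HepG2, could only rise in the liver pair. CEACAM1 fell in both pairs, and by more in HepG2S3, with a difference of -4.89 ± 0.53 (adjusted p = 7.2e-05). MUC20 fell in both as well, by more in HCC4006ER, with a difference of 5.89 ± 1.21 (adjusted p = 0.0031). The differences of MUC13, MUC16 and CEACAM6 rest on few reads in 1 of the pairs and are listed with the results to look at again.

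For the other pairs the only test is an edgeR fit of all 21 libraries, in which a lone library is assumed to vary like the duplicated lines. It called 4 members higher and 2 lower in HepG2S1 (21.2% and 23.9% of 16832 genes), 5 higher and 3 lower in HepG2S3 (27.2% and 28.6%), where MUC5AC was added with -4.89 ± 1.46 (adjusted p = 0.023), and none higher and 7 lower in HCC4006ER (18.2% and 16.1%), where MUC16 was added with -4.71 ± 1.36 (adjusted p = 0.024). Neither gene had passed the filter of its pair, and both entered here through other lines. MUC5AC had 8 and 2 reads in HepG2 and 0 in HepG2S3. MUC16 had 31 and 3 reads in HCC4006P1 and 0 and 1 in HCC4006ER. At these counts each could only be called lower. In PancB1Q against PancVB the fit of 21 libraries called 5 members lower (5.97%) and none higher (7.12%). They were MUC4, MUC5AC with -4.79 ± 0.57 (adjusted p = 0.0026), MUC13, CEACAM1 with -2.65 ± 0.51 (adjusted p = 0.011) and MUC1 with -1.22 ± 0.32 (adjusted p = 0.036). In PancB1V it called 6 lower (5.82%) and none higher (7.78%), the same 5 and MUC16. In HCC827GR it called 6 members lower (5.66%) and none higher (7.68%). Its largest change there was MUC4 with -7.02 ± 0.57 (adjusted p = 0.00017), followed by CEACAM5 with -3.90 ± 0.55 (adjusted p = 0.0022), MUC13, CEACAM6, SLPI and MUC1. MUC16, with -1.40 ± 0.54, did not pass (adjusted p = 0.13). In HCC4006GR it called CEACAM5 with -3.54 ± 0.45 (adjusted p = 0.0020), CEACAM6 with -3.54 ± 0.50 (adjusted p = 0.0030) and MUC1 with -0.94 ± 0.25 (adjusted p = 0.0497) lower (2.88%) and none higher (5.07%). In the ovarian lines single members passed, MUC4 in U10 with 1.69 ± 0.38 (adjusted p = 0.041; 2.75% of genes called higher and 1.69% lower) and SLPI in IGROV-1/CDDP with 1.98 ± 0.53 (adjusted p = 0.048; 4.81% called higher and 4.90% lower). SLPI, with 1.54 ± 0.47 in both U10 and U100, did not pass (adjusted p = 0.11 and 0.17), and in U100 no member passed (1.08% of genes called higher and 0.392% lower).

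Over all 7 parental lines no shared change of a member was called. Counts were summed per parental line and over its resistant lines, and edgeR with the parental line as a block called 0 of 12621 genes in either direction, with 562 genes and 0 members at an unadjusted p under 0.05. DESeq2 called 67 genes higher and 20 lower, none of them a member. The 6 members that passed the filter ranged from -1.81 ± 1.80 for MUC4 to 0.12 ± 1.43 for SLPI, and the sign of SLPI turned when HepG2, UWB1.289 or IGROV-1 was left out.

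Resistant lines of the same parent were set against each other in the fit of 21 libraries, again chosen after the data were seen. Between HepG2S3 and HepG2S1, 1 member was called, MUC1 lower by 2.38 ± 0.21 in HepG2S3 (adjusted p = 0.00077; 1.11% of genes called lower and 1.03% higher), and MUC13 differed by -0.59 ± 0.25 (adjusted p = 0.29). Between PancB1V and PancB1Q none was called (0.0594% of genes higher and 0.00594% lower). MUC16 came nearest there with -5.53 ± 1.36 (adjusted p = 0.23). Between U100 and U10 none was called (0.404% and 0.594%), with MUC4 at -1.25 ± 0.38 (adjusted p = 0.17), MUC20 at 1.62 ± 0.59 (adjusted p = 0.25) and SLPI at -0.01 ± 0.46 (adjusted p = 1). These misses do not show that the lines express the genes alike, as the standard errors allow differences of over 1 in log2 for several members.

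The parental stocks of HCC4006 differed in several members. In the same fit HCC4006P2 exceeded HCC4006P1 in 6 members, where 11.2% of genes were called higher and 10.3% lower. CEACAM5 was higher by 8.33 ± 0.46 (adjusted p = 8.6e-06), CEACAM6 by 6.24 ± 0.42 (adjusted p = 2.7e-05) and MUC16 by 4.85 ± 0.57 (adjusted p = 0.00048). MUC5AC, SLPI and CEACAM1 were higher by 5.39 ± 1.02, 2.55 and 1.68. No member was called lower. In the HCC4006P1 libraries MUC5AC had 0 and 1 reads and CEACAM5 had 4 and 6. These genes could only be called higher, so the count does not stand for the members as a group. MUC1 differed by -0.17 ± 0.21, MUC4 by 0.29 ± 0.45 and MUC20 by 0.00 ± 0.47. The lung markers moved with the called members, as given at the outset, and their part was not tested. The lung parents therefore did not start from a common level, which bears on any comparison of HCC4006ER with HCC4006GR.

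Genes that work with the members were counted in the replicated pairs from fixed lists, to be read beside the 24.1% and 24.9% of all tested genes called higher and lower in HCC4006ER and the 31.4% and 32.1% in HepG2S3. A list gene near the floor in the parental or the resistant line passed the filter through the other and could be called in a single direction only. Of 27 genes for building O-linked sugar chains, 19 were tested in HCC4006ER, 12 fell and 3 rose, with a median of -1.58 against 0.01 over all genes tested. FUT3, the fucosyltransferase of Lewis antigens, fell by 10.08 ± 0.53 (adjusted p = 3.2e-05), B3GNT3, a core extension enzyme, fell by 4.16 ± 0.15 (adjusted p = 1.0e-05) and GALNT6, an initiating transferase, fell by 3.92. In HepG2S3, 21 were tested, 7 rose and 8 fell, near the shares over all genes, and the median was -0.06. GCNT4 fell by 9.34 ± 1.42 (adjusted p = 0.0055) while GALNT12 rose by 7.37 ± 0.45 (adjusted p = 0.00016) and B3GNT5 by 6.99 ± 0.45 (adjusted p = 0.00019). All adjusted p-values here are from edgeR.

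Of 25 genes of the mucus secretory programme, 10 were tested in HCC4006ER, 8 fell and 2 rose. AGR2, the disulfide isomerase needed for mucin folding, fell by 10.74 ± 0.49 (adjusted p = 1.9e-05), the epithelial factor EHF fell by 10.59 ± 0.30 (adjusted p = 6.9e-06) and the goblet cell factor SPDEF fell by 9.80 ± 0.39 (adjusted p = 1.3e-05). The 2 that rose were LTF by 9.47 ± 0.72 (edgeR, adjusted p = 0.00031) and CREB3L1 by 1.35. In HepG2S3, 15 were tested, 9 fell and 5 rose. There lysozyme (LYZ) fell by 10.69 ± 0.73 (edgeR, adjusted p = 0.00021), FOXA2 fell by 10.44 ± 0.48 (adjusted p = 7.3e-05) and FOXA3 fell by 9.64 ± 0.81 (adjusted p = 0.00043). The 5 that rose were CREB3L1 by 3.9, EHF by 3.3, KLF5 by 3.0, KLF4 by 2.3 and ELF3 by 0.7. Among the partners of MUC1, MUC4 and MUC16, the receptor ERBB3 fell by 6.82 ± 0.34 in HCC4006ER (adjusted p = 2.6e-05) and fell by 6.01 ± 0.29 in HepG2S3 (adjusted p = 8.1e-05). MSLN, the mesothelin that binds MUC16, rose by 3.96 ± 0.23 (adjusted p = 0.00013) and EGFR by 3.86 ± 0.14 (adjusted p = 4.4e-05) in HepG2S3. In all, 3 of these 8 genes rose and 4 fell in HepG2S3, and 1 rose and 5 fell of 6 tested in HCC4006ER. EGFR and MSLN were not among these 6. Genes past the stop of HCC4006P1 replicate 1 were left out of that fit whatever their level, so its counts do not cover whole lists.

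Of 17 other mucins and mucin-like proteins, 9 were tested in HepG2S3, 5 rose and 3 fell. The transmembrane intestinal mucins MUC12, MUC3A and MUC17, which lie in a cluster, rose by 10.80 ± 0.58 (adjusted p = 0.00011), 8.84 ± 0.47 (adjusted p = 0.00011) and 7.44 ± 0.92 (adjusted p = 0.0029) in edgeR's test. MUC12 reached 372 CPM in HepG2S1 and 193 CPM in HepG2S3 from 0.0819 CPM in HepG2, where MUC3A had 0.179 CPM. Both passed the filter through HepG2S3 and could only be called higher, so the count of risen genes says nothing of the list as a group. In HCC4006ER 4 were tested and 1 rose, MCAM by 1.70 (adjusted p = 0.00030). Of 11 proteins with the WAP domain of SLPI, PI3 rose by 4.97 ± 0.40 in HepG2S3 (adjusted p = 0.00038) and WFDC2 fell by 4.41 ± 0.57 in HCC4006ER (adjusted p = 0.0012), from 2 and 1 genes tested. Of 9 other CEACAM genes, 1 was tested in each pair, CEACAM19, which fell by 1.89 in HepG2S3 (adjusted p = 0.0054) and did not pass in HCC4006ER with -0.71. Of 7 partners of SLPI, 4 were tested in each pair, with 3 higher and none lower in HepG2S3 and 1 higher and 2 lower in HCC4006ER, where the binding protein ANXA2 rose by 3.72 in HepG2S3 and fell by 1.36 in HCC4006ER.

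Markers of other cell types moved in the same libraries. Of 4 fibroblast markers, 4 rose in HCC4006ER, led by DCN with 10.97 (adjusted p = 0.00016), and their sum was 0.261 CPM in HCC4006P1 and 166 CPM in HCC4006ER. With so low a sum in HCC4006P1, all 4 passed the filter through HCC4006ER and could only be called higher. In HepG2S3 2 rose, DCN by 13.96 and LUM by 9.87, and the sums were 8.41 CPM in HepG2, 536 CPM in HepG2S1 and 388 CPM in HepG2S3. Of 5 pancreatic duct markers, 3 were tested in each pair. In HepG2S3 the keratin KRT7 rose by 11.15 (adjusted p = 6.0e-05), whereas SOX9 fell by 8.68 (adjusted p = 2.6e-05) and KRT19 fell by 1.40 (adjusted p = 0.019). In HCC4006ER all 3 fell, KRT19 with -9.61, KRT7 with -3.69 and SOX9 with -0.78. The leukocyte and endothelial markers summed to 1553 CPM in HepG2, 1.02 CPM in HepG2S1 and 1.64 CPM in HepG2S3. Nearly all of the HepG2 sum was LYZ at 1552 CPM, which fell by 10.69 in HepG2S3, and VWF fell by 5.20 there. CD3E and PTPRC stayed under 1 CPM in all lines, although PTPRC rose by 2.85 in HCC4006ER (adjusted p = 0.010). In these cultures fewer cells of a type and less RNA per cell cannot be told apart, and the part of these genes in the results was not tested.

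Over the 17 lines the levels of some members followed each other. As log2(CPM + 1), Pearson's r was 0.87 for CEACAM5 and CEACAM6, 0.76 for MUC1 and CEACAM6, and 0.70 for MUC4 and SLPI, and no pair was under -0.5. These are descriptions over 17 lines of which several share a parent. The gene most like MUC20 was its pseudogene MUC20P1 (r = 0.97), with which it shares sequence, followed by TMC4 (r = 0.94). The genes most like CEACAM5 were MFSD4A and SFTA3 (both r = 0.97), and those most like CEACAM6 were MB and FXYD3 (r = 0.96 for each). For MUC1 they were SYT17 (r = 0.92) and ADGRF4 (r = 0.91), for MUC4 PACRGL (r = 0.92) and FAM83F (r = 0.90), and for MUC16 BTC (r = 0.90) and ZNF667-AS1 (r = 0.81). For CEACAM1 they were TTYH1 (r = 0.91) and FUT6 (r = 0.90). For MUC13 they were CNTNAP4 and C5AR2, and for MUC5AC CD180 and CXCL9 (r from 0.94 to 0.95). For SLPI they were an unnamed long noncoding RNA (r = 0.93) and FAM98A (r = 0.92).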

How the data were processed

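RNA sequencing libraries of 17 cell lines were analysed from the counts of reads per gene that the authors deposited, which are not normalized. The study describes KAPA stranded or Lexogen 3′ libraries, reads mapped to hg19 with TopHat or STAR, and counting with HTSeq, and the strand setting and versions are not given in the sources used here. A 3′ end kit does not scale counts with transcript length, so values per kb hold only for full-length libraries. Rows that name no gene (28.0% to 42.8% of all counts) were left out. Symbols and positions came from a GENCODE annotation of GRCh37 (45100 genes, 84.3%, matched). The 10 genes, the lists and the tests were chosen with earlier results of these data known. All members were named, the 3 genes of each list and pair with the largest called change, and the 2 genes most correlated with each member, with further genes named after their values were seen.

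CPM were taken from the total on genes, with a pseudocount of 1 CPM and 95% Wilson intervals, which cover counting error only. edgeR 4.0.16 was used with TMM, filterByExpr, the quasi-likelihood test and Benjamini-Hochberg adjustment at 0.05, leaving out, in fits with HCC4006P1 replicate 1, the genes past its stop. Replicate numbers were the letters A and B of the line labels, although a second label gives both HepG2 libraries, and both HepG2S3 libraries, the same number. Alternatives used DESeq2 1.42.0, other scalings, filters and pseudocounts, a replicate block and left-out libraries. Replicates of each line differed by more than counting noise. The edgeR test was tested on simulated counts with 200 genes changed. R 4.3.3 and Python 3.11.15 were used.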

Additional observations from a re-analysis of the deposited data

Results flagged for a closer look

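The change of 8 members differed between the replicated pairs, by edgeR's test of the difference over 8 libraries with Benjamini-Hochberg adjustment. The log2 change in HepG2S3 minus that in HCC4006ER was 13.70 for MUC1, 9.54 for MUC4, 14.10 for SLPI, 5.89 for MUC20 and -4.89 for CEACAM1, with adjusted p-values from 6.4e-08 to 0.0031. It was 12.38 for MUC16 (adjusted p = 0.00020), where HCC4006P1 held 1.66 and 0.154 CPM and HCC4006ER at most 1 read. It was 13.33 for CEACAM6 (adjusted p = 0.00046), which had 2 reads in HepG2 and 8 in HepG2S3. It was 6.99 for MUC13 (adjusted p = 0.037), which had 1 read in each HCC4006 line. MUC1, MUC4 and SLPI also had few reads in HepG2, and MUC4 and SLPI few in HCC4006ER. Fitted values at so few reads depend on the prior count of the fit. In this test 28.2% and 27.7% of all genes were called higher and lower. The liver markers, fibroblast markers and the missing counts of HCC4006P1 replicate 1 go with the same libraries, whose part was not tested.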

How the results depend on the processing

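Of the recomputed counts of calls, 145 stayed within 1.5 times their value and 9 did not. Those 145 include counts that were 0 under both settings, so the tally says little of stability. Among them were all edgeR counts over 7 parental lines and the members called higher in HCC4006ER. In HCC4006ER against HCC4006P1, the 3084 genes called higher and 3182 lower became 1673 and 1744 when genes past the stop of HCC4006P1 replicate 1 were kept, with 5 members called lower, and 0 and 0 when a replicate block was added to that fit, with 0 members called (adjusted p 0.11 to 0.18 for the 6). Leaving out a library gave 1990 to 4181 genes higher and 2061 to 4210 lower, lowest without HCC4006ER replicate 1, and 5 to 7 members lower. Over 7 parental lines DESeq2 called 67 genes higher and 20 lower where edgeR called 0, and the change of SLPI, 0.12 with all lines, was -0.57 without HepG2, -0.37 without UWB1.289 and -0.37 without IGROV-1, and at most 0.79, without HCC4006P1. The replicate numbers did not clearly pair the libraries (correlation of deviations 0.0498 for HepG2S3 and 0.412 for HCC4006ER). With the replicate block and genes before the stop, 5279 genes were called higher and 5282 lower for HepG2S3 and 3873 and 3914 for HCC4006ER, with 5 and 2, and 0 and 6, members. Over the 100 combinations, a pseudocount of 0.1 CPM gave 16 higher and 34 lower, totals of genes before the stop 15 and 37, and the fit of 21 libraries 11 and 32. SLPI in HCC4006ER went under the rule without HCC4006P1 replicate 1 (-0.61), and MUC20 in HepG2S3 without HepG2 replicate 1 (-0.81). Of the single values under alternatives, 751 kept direction and side of the threshold, 22 lost the call, 23 gained one and 3, those of SLPI above, changed sign. Depth limits genes under 1 CPM.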
